A study of Homo sapiens with 6 samples.

Results

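The zinc-finger gene clusters of chromosome 19 are described here through the SMAD2 binding summits that fell inside 3 intervals of the hg19 build. Cluster 1 runs from 20000000 to 24400000, cluster 2 from 52300000 to 54100000 and cluster 3 from 56100000 to 58900000, together 9 Mb or 15.3% of the stretch between the first and the last summit of the chromosome. Members were all summits inside these intervals, taken by position alone. They numbered 401 of 79310 summits in 4 libraries, and joining summits within 250 bp of the next gave 168 binding sites of 36648. The remainder of chromosome 19, with 5852 summits and 2914 sites, served as the comparison.

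SMAD2 had been immunoprecipitated and sequenced (ChIP-seq) in Hs578T, an established cell line from a human breast tumour of the triple-negative class. All libraries came from cells given activin A at 50 ng/ml for 1.5 h. The activin group (2 libraries) received nothing else, and the palbociclib group (2 libraries) also received palbociclib, an inhibitor of the kinases CDK4 and CDK6, at 1 µM for 24 h. Per the labels, the libraries of a treatment were called against 1 input library of that treatment, so treatment and input cannot be told apart. No unstimulated ChIP library was analysed here, and whether replicates came from separate cultures is not stated, so their spread may be technical only.

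KRAB zinc-finger proteins are the largest family of human transcription factors, and their genes arose mostly by tandem duplication. The KRAB domain recruits the corepressor TRIM28 (KAP1) and with it the histone methyltransferase SETDB1, which lays down the repressive mark H3K9me3, and an array of C2H2 zinc fingers reads the DNA. Many members silence transposable elements, among them ZNF91, which acts on SVA elements. The bodies of many of these genes carry H3K9me3 themselves. SMAD2, by contrast, is a signal-driven factor that enters the nucleus after the activin receptor phosphorylates it. It is known to work at promoters and enhancers that other factors have opened.

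In the RefSeq annotation of GRCh38.p14, 250 of the 517 protein-coding genes with ZNF symbols lie on chromosome 19, which has 1451 protein-coding genes. The longest unbroken run of neighbouring ZNF genes holds 27 genes, from ZNF737 to ZNF681, with ZNF91 among them, and further runs of 24 and 20 genes go from ZNF627 to ZNF791, from ZNF283 to ZNF180 and from ZNF566 to ZNF793. That build is not the one of the summits. Sites are therefore given by hg19 position, and which promoter, exon or intron they touch was not analysed here. The comparison region contains zinc-finger runs of its own, so it is not free of such genes. The sources used here do not say how reads matching several duplicated copies were handled.

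The lists held 7241 to 27290 summits, and read depth is unknown. Activin replicate 2, with 7241 summits, had the shortest list by far, and its values are given separately below. Scores are the authors' −log10 significance of each peak; they grow with depth and were used only to order summits within a library. The score percentile used below is 0 for the strongest summit of a list and 100 for the weakest.

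SMAD2 summits were sparser in the zinc-finger clusters than in the rest of chromosome 19. Activin replicates 1 and 2 had 130 and 37 summits in the clusters, and palbociclib replicates 1 and 2 had 135 and 99. Per Mb these were 14.4, 4.11, 15.0 and 11.0 summits, against 39.5, 8.67, 43.2 and 26.2 in the rest of the chromosome. Every library was lower in the clusters, by 2.73 and 2.11 times in the activin replicates and by 2.88 and 2.38 times in the palbociclib replicates. The mean log2 ratio was -1.33 ± 0.20 (SD, n = 4 libraries), a 2.51-fold lower density. An exact sign-flip permutation test over the 4 libraries gave p = 0.13 (two-sided), the smallest value that 4 libraries allow. Without activin replicate 2 the log2 ratio was -1.41. Chromosome 19 itself held 8.20% and 6.48% of all summits in the activin replicates, and 8.38% and 7.29% in the palbociclib replicates. Density over the genome was not computed, so the lower density holds against this chromosome only.

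The 3 clusters differed widely from each other. Cluster 1, on the short arm next to the centromere, was nearly bare, with 22 and 7 summits in the activin replicates and 24 and 16 in the palbociclib replicates over 4.4 Mb. Its density was 5.45 to 7.92 times lower than in the rest of the chromosome, with a mean log2 ratio of -2.81 ± 0.25 (SD, n = 4). Cluster 2 had 27 and 4 summits in the activin replicates and 28 and 20 in the palbociclib replicates, which was 2.35 to 3.90 times lower than the rest (mean log2 ratio -1.52 ± 0.31). Both differences pointed the same way in all 4 libraries, with p = 0.13 in the same exact permutation test. Cluster 3 came close to the rest, with 81 and 26 summits in the activin replicates and 83 and 63 in the palbociclib replicates. Its mean log2 ratio was -0.28 ± 0.29, and activin replicate 2 was slightly denser there than in the rest of the chromosome (log2 ratio 0.10; exact permutation p = 0.25 over the 4 libraries).

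**Figure D1:**
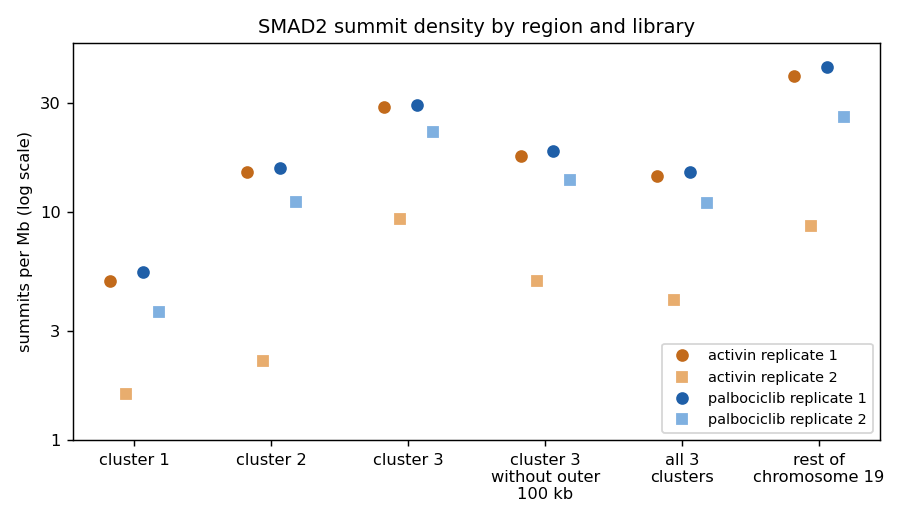
Summits per Mb (log scale) in each cluster, in cluster 3 without its outer 100 kb on either side, in all 3 clusters and in the rest of chromosome 19; each point is 1 library. Within every library cluster 1 is the lowest and the rest of the chromosome lies above clusters 1 and 2, while cluster 3 approaches the rest and falls to between 5.0 and 18.5 summits per Mb without its borders.

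The borders of cluster 3 raised its density and held 42.2% to 50.0% of its summits. The first and the last 100 kb held 35 of 81 and 13 of 26 summits in the activin replicates, and 35 of 83 and 27 of 63 in the palbociclib replicates. These border windows were 4.05 to 7.50 times as dense as the rest of the chromosome. The inner 2.6 Mb had 17.7 and 5.0 summits per Mb in the activin replicates and 18.5 and 13.8 in the palbociclib replicates, 1.73 to 2.34 times below the rest. The whole difference is therefore sensitive to where a cluster is taken to end: with every cluster narrowed by 200 kb at both ends the mean log2 ratio was -1.74, a 3.34-fold lower density.

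Sites gathered in a few windows, and long stretches had none. Of the 90 windows of 100 kb in the clusters, 42 held no site in any library (46.7%, Wilson 95% interval 36.7 to 56.9), against 154 of 499 windows in the rest (30.9%, 27.0 to 35.0). In cluster 1 this was 29 of 44 windows, in cluster 2 it was 5 of 18 and in cluster 3 it was 8 of 28. Against the share in the rest, the excess of empty windows thus sat in cluster 1. The rest includes its longest summit-free stretch, 3.88 Mb ending at 28284549, which raises its share of empty windows. The share without that stretch was not computed. The longest stretch of the clusters with no summit in any library ran from 21950340 to 22816825, 866 kb of cluster 1, and only 2 neighbouring sites separated it from another of 616 kb, from 22817179 to 23433118. In cluster 3 the longest ran from 57106711 to 57683799 (577 kb), and in cluster 2 from 53606639 to 53837032 (230.4 kb).

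The 3 densest windows held 58 of the 168 sites, or 34.5%. They were the windows from 56100001 to 56200000 with 27 sites and from 58800001 to 58900000 with 22 sites, the 2 borders of cluster 3, and the window from 23400001 to 23500000 in cluster 1 with 9 sites. In the first of these, 19 and 9 summits came from the activin replicates and 19 and 17 from the palbociclib replicates. In the second the numbers were 16 and 4, and 16 and 10. In the window of cluster 1 they were 5 and 1, and 6 and 3, and only 1 of its 9 sites was found in all 4 libraries. Windows with 5 or more sites made up 10% of the cluster windows and 40.1% of those in the rest. The densest window of the rest held 43 sites. The share of sites in the 3 densest windows was not computed for the rest, so gathering is not shown to be particular to the clusters.

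**Figure D2:**
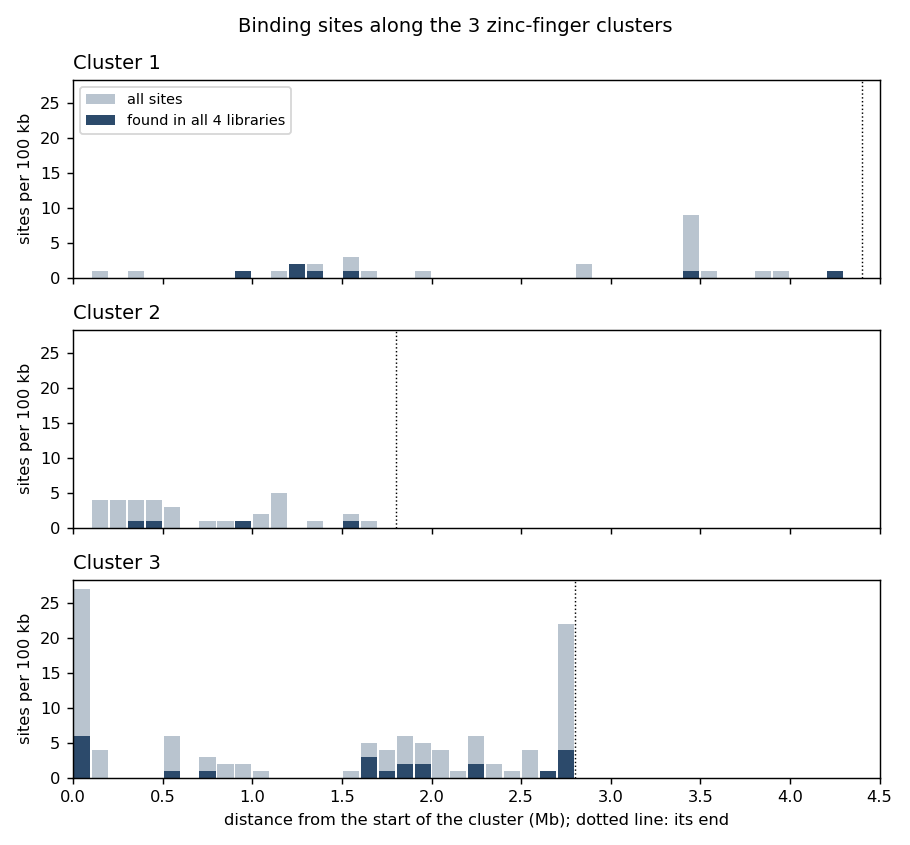
Binding sites per 100 kb along each cluster (light bars), with those found in all 4 libraries in dark; the horizontal axis is the distance from the start of the cluster in Mb. Cluster 1 is mostly empty apart from 1 window of 9 sites, and the tallest bars of cluster 3, 27 and 22 sites, stand at its 2 ends.

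Cluster sites stood alone more often than sites elsewhere on the chromosome. The median distance between neighbouring sites was 61.5 kb in cluster 1, 33.5 kb in cluster 2 and 7.23 kb in cluster 3, against 1.41 kb in the rest. A site was counted as isolated when no other site lay within 2000 bp. By that measure 85 of 168 cluster sites were isolated (50.6%, Wilson 95% interval 43.1 to 58.1), against 634 of 2914 in the rest (21.8%, 20.3 to 23.3). The share was 19 of 28 sites in cluster 1, 21 of 33 in cluster 2 and 45 of 107 in cluster 3. Sites are not independent replicates, so these shares carry no test, and their intervals cover counting error only. Fewer sites per Mb, 18.7 in the clusters against 58.5 in the rest, also leave wider gaps. Isolation is thus not a result separate from the lower density.

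In the 3 longer lists most cluster summits lay in the stronger 50% of the list, yet few were among the strongest. The stronger 50% held 76 of 130 in activin replicate 1 (58.5%, Wilson interval 49.9 to 66.6). In palbociclib replicates 1 and 2 it held 85 of 135 (63.0%, 54.6 to 70.6) and 55 of 99 (55.6%, 45.7 to 65.0). A whole list holds 50% there by definition, which lies inside the intervals of activin replicate 1 and palbociclib replicate 2. The rest of the chromosome had 41.6%, 42.5% and 44.1%, each below the interval of its library. In activin replicate 2 it was 10 of 37 cluster summits (27.0%, 15.4 to 43.0), against 39.1% in the rest. The median score percentile of cluster summits in the 3 longer lists was better than that of the rest of chromosome 19. It was 39.9 against 57.9 in activin replicate 1. In palbociclib replicates 1 and 2 it was 37.0 against 58.6 and 43.4 against 55.9. In activin replicate 2 the order was the other way, 67.1 against 60.0. The mean difference was -11.2 ± 12.8 percentile points (SD, n = 4; exact sign-flip permutation p = 0.25, two-sided), so it was within the spread between libraries. Without activin replicate 2 it was -17.3 ± 4.56 (n = 3), in the same direction in all 3, with p = 0.25, the smallest an exact permutation test of 3 libraries allows.

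In the 3 longer lists the clusters had a smaller share of weak summits than the rest of the chromosome, and a similar share of very strong ones. The weakest 25% of a list contributed 31 of 130 cluster summits in activin replicate 1 (23.8%, Wilson 95% interval 17.3 to 31.9), 24 of 135 in palbociclib replicate 1 (17.8%, 12.2 to 25.1) and 15 of 99 in palbociclib replicate 2 (15.2%, 9.40 to 23.5). In the rest of the chromosome the corresponding shares were 30.6%, 31.2% and 29.6%, the first of which lies inside the cluster interval of activin replicate 1. A whole list holds 25% there by definition, which lies inside the intervals of activin replicate 1 and palbociclib replicate 1. In activin replicate 2 the weakest 25% contributed 16 of 37 cluster summits (43.2%, 28.7 to 59.1), against 31.7% in the rest. At the strong end, the best 10% of a list supplied only 7 and 1 cluster summits in the activin replicates and 7 and 5 in the palbociclib replicates. That was 2.70% to 5.38% of the cluster summits, against 5.70% to 7.41% in the rest. The upper ends of the Wilson 95% intervals of the clusters were 10.3% to 13.8%, so all include the 10% of a whole list. Cluster 2 had none in the best 10% of any list. Its highest summit ranked 6444 of 25553 and 4286 of 7241 in the activin replicates, and 4922 of 27290 and 5040 of 19226 in the palbociclib replicates.

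The direction of the median turned in lists of equal length. In lists reduced to the 7241 best scores of each library, the cluster summits numbered 30 and 37 in the activin replicates and 40 in each palbociclib library. In the 3 shortened lists a larger part of the cluster summits than of the rest was kept. This was 23.1% against 21.3% in activin replicate 1. In palbociclib replicates 1 and 2 it was 29.6% against 20.0% and 40.4% against 31.5%. Within the reduced lists the median percentile of the cluster summits was 63.0 and 67.1 in the activin replicates and 78.5 and 72.1 in the palbociclib replicates. The rest of the chromosome had 58.1, 60.0, 56.3 and 58.0. The cluster median was thus weaker in all 4 libraries, by a mean of 12.1 points (exact sign-flip permutation p = 0.13, two-sided, the smallest possible). The list of activin replicate 2 was not shortened, so its value is that of the full list. With scores of at least 5 in place of equal length, the mean difference kept its sign, at -5.94 points and better in the clusters in 3 of 4 libraries (exact permutation p = 0.375). Summit density in the lists of equal length remained lower in the clusters, by 1.86 to 2.52 times.

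**Figure D3:**
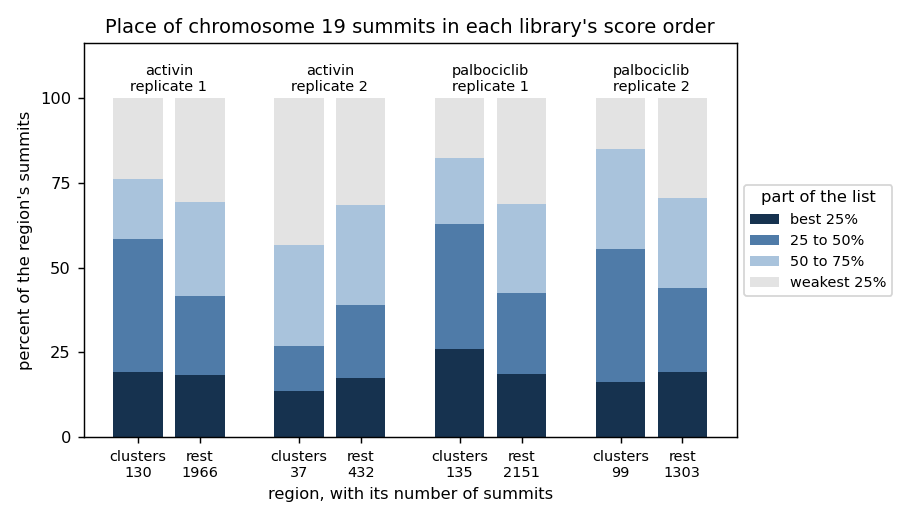
Share of summits from each 25% of a library's score order, for the clusters and the rest of chromosome 19 (vertical axis, percent; the number of summits is under each bar). In the 3 longer lists the clusters have a smaller weakest part than the rest, 15.2% to 23.8% against 29.6% to 31.2%, while in activin replicate 2 it is larger, 43.2% against 31.7%.

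In the full lists, cluster sites recurred between libraries more often than those of the rest of the chromosome. Of 168 sites, 34 were found in all 4 libraries (20.2%, Wilson 95% interval 14.9 to 26.9). The share was 342 of 2914 in the rest of chromosome 19 (11.7%, 10.6 to 13.0) and 15.9% over all 36648 sites, which lies inside the interval of the clusters. By cluster these were 7 of 28 sites, 4 of 33 and 23 of 107. Another 50 cluster sites were missing only in activin replicate 2, or 29.8% (23.4 to 37.1), against 22.5% of all sites and 19.4% in the rest of the chromosome. Whether or not activin replicate 2 held them, 84 of the 168 sites (50.0%, 42.5 to 57.5) were in all 3 other libraries. The shares were 31.2% in the rest and 38.4% of all sites, both outside the interval of the clusters. Their bases still count sites found only in activin replicate 2. With that library left out the share in the rest was 31.6%. In lists of equal length the order turned: 35.7% of 56 cluster sites (24.5 to 48.8) were in all 4 libraries, against 44.0% in the rest of the chromosome and 49.2% of all sites. Sites of 1 library made up 32.7% (26.1 to 40.2) in the clusters and 43.9% in the rest, both in the full lists. Over all sites of the full lists the share was 39.7%, which lies inside the interval of the clusters.

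**Figure D4:**
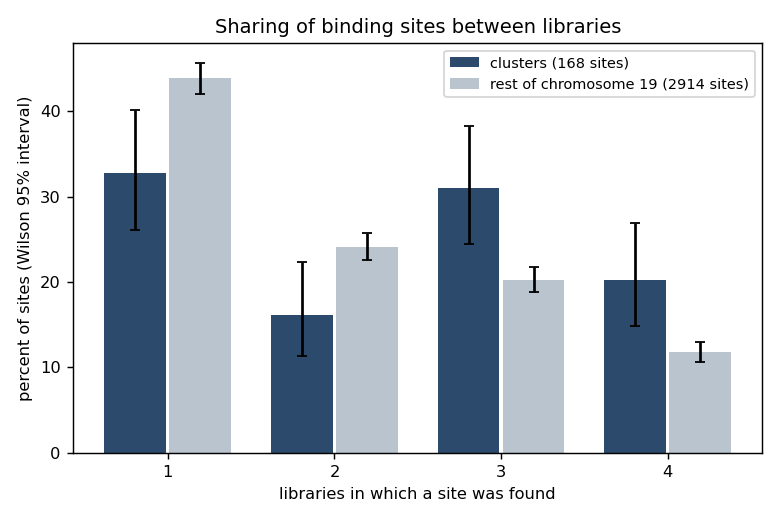
Percent of sites found in 1, 2, 3 or 4 libraries, for the 168 sites of the clusters (dark) and the 2914 sites of the rest of chromosome 19 (light), with Wilson 95% intervals. Sites in 1 or 2 libraries are a smaller share in the clusters and sites in 3 or 4 libraries a larger one, 20.2% against 11.7% for all 4.

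Among summits of like rank the sharing was similar in both regions. In the best-scored 50% of activin replicate 1, 34 of 76 cluster sites were in all 4 libraries (44.7%, Wilson 95% interval 34.1 to 55.9), against 336 of 817 in the rest (41.1%). For palbociclib replicate 1 these shares were 40.0% and 37.2%, and for palbociclib replicate 2 they were 60.0% and 56.7%. In the other 50%, none of 54 cluster sites of activin replicate 1, none of 50 of palbociclib replicate 1 and 1 of 44 of palbociclib replicate 2 were in all 4, near the shares over all sites of 0.31%, 0.22% and 1.68%. For activin replicate 2 the shares in all 4 libraries were higher in the clusters. In its best-scored 50% it was 10 of 10 (72.2 to 100), against 89.9% in the rest. In its other 50% it was 24 of 27 (88.9%, 71.9 to 96.1). The 72.2% of the rest lies inside that interval and the 71.0% of all sites just below it. All 37 cluster sites of activin replicate 2 were found in another library (100%, 90.6 to 100). This interval includes the 90.7% of the rest and begins just above the 90.2% of all sites. Isolated cluster sites were in all 4 libraries in 23 of 85 cases (27.1%, 18.8 to 37.3), and those with a neighbour within 2000 bp in 11 of 83 (13.3%, 7.56 to 22.2). In the rest the same shares were 18.0% and 10.0%.

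Pairs of libraries were compared by the Jaccard index, the sites common to the pair as a share of its sites in total. Within the clusters it was 27.5% for the activin replicates and 60.3% for the palbociclib replicates. Across treatments, activin replicate 1 reached 64.6% with palbociclib replicate 1 and 62.4% with replicate 2, while activin replicate 2 reached 25.5% and 36.0%. The pairs with the short list were the lowest, and the index did not part the libraries by treatment. Each of the 6 pairs had a lower index in the rest of the chromosome, from 16.3% to 50.4%, and over all sites, from 21.4% to 55.7%.

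The share of chromosome 19 summits that fell in the clusters did not separate the treatments. It was 6.20% (Wilson 95% interval 5.25 to 7.32) and 7.89% (5.78 to 10.7) for the activin replicates, 1 before 2, and 5.91% (5.01 to 6.95) and 7.06% (5.83 to 8.52) for the palbociclib replicates. The group means were 7.05% ± 1.19 and 6.48% ± 0.82 (SD, n = 2 each), and the values overlapped. The exact permutation test gave p = 0.667 (two-sided), and 2 against 2 libraries cannot go below 0.33. The difference of -0.56 percentage points became 0.28 without activin replicate 2. As a share of all summits the clusters were nearly constant, with 0.509%, 0.511%, 0.495% and 0.515% in the same order. In the lists of equal length the palbociclib libraries were both higher, 8.51% and 8.87% against 6.70% and 7.89%, with p = 0.33 in the exact permutation test and counting intervals that overlap.

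The median percentile of cluster summits averaged 53.5 ± 19.2 (SD, n = 2) with activin alone and 40.2 ± 4.48 with palbociclib (exact permutation p = 0.667, two-sided). This difference of -13.3 points rested on activin replicate 2, without which it was 0.29. The treatments did not overlap in 7 of the 32 comparisons of this kind, made over 8 measures in the clusters together and singly. Each had p = 0.33, the smallest possible in the exact permutation test, and 0.79 after Benjamini-Hochberg adjustment over the 32. The weakest 25% of the list held 33.5% ± 13.7 of cluster summits with activin alone and 16.5% ± 1.86 with palbociclib (SD, n = 2 each). This difference of -17.1 points was -7.38 without activin replicate 2. In cluster 1 the median percentile was 38.0 and 59.6 in the activin replicates and 29.2 and 31.0 in the palbociclib replicates, a difference of -18.7 points that was -7.94 without activin replicate 2, over 7 to 24 summits a library.

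Sites of 1 treatment alone were few in the full lists. In both palbociclib libraries and neither activin library there were 4 cluster sites of 168 (2.38%), against 3.56% of all sites. In both activin libraries and neither palbociclib library there was none, against 0.344% of all sites. The 2 replicate 1 libraries alone shared 19 cluster sites (11.3%), against 12.7% of all sites. All 4 palbociclib-only sites lay in cluster 3 and had an activin summit within 298 to 809 bp. The strongest, from 56825846 to 56825872, scored 70.0 and 26.8 in replicates 1 and 2, with an activin summit 298 bp away. The others, from 56130128 to 56130132, from 56117583 to 56117591 and from 56674490 to 56674708, scored 6.83 to 9.38 in replicate 1 and 2.57 to 6.59 in replicate 2, in the weaker 50% of their lists.

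In lists of equal length, palbociclib-only sites were a larger share in the clusters than elsewhere. There 9 of 56 cluster sites were in both palbociclib libraries and no activin library (16.1%, Wilson 95% interval 8.69 to 27.8), against 5.91% in the rest of the chromosome and 4.02% of all 9949 sites. Of these, 3 lay in cluster 1, 2 in cluster 2 and 4 in cluster 3. Another 4 were in both activin libraries only (7.14%, 2.81 to 17.0), against 3.61% in the rest and 2.11% of all sites. The share in the rest lies inside this interval and that of all sites just below it. For 8 of the 9 and for all 4 of the others, the full lists did hold a summit from the opposite group, no farther than 250 bp away, that the reduced lists left out. Sites are not replicates, so the shares carry no test.

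The 34 sites found in all 4 libraries were then ranked among the 5829 such sites of the genome, again with 0 for the strongest. Cluster sites stood toward the weak end of this order. Their median percentile was 75.4 and 71.6 for the activin replicates, and for the palbociclib replicates it was 73.8 and 74.4. The 342 common sites of the rest of chromosome 19 had medians of 60.0, 61.4, 59.9 and 62.1. The order held in every library, and the cluster values ranged from 7.39 to 98.5.

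The strongest common site of the clusters lay in cluster 1, from 21265040 to 21265069. Its scores were 105 and 20.2 in the activin replicates and 236 and 123 in the palbociclib replicates. Among common sites it stood at percentiles 23.7 and 13.9, and 8.37 and 7.39, so each palbociclib library placed it higher than either activin library. The next sites of cluster 1 ran from 21324832 to 21324875 (mean percentile over the 4 libraries 38.0), from 23456952 to 23456996 (56.6) and from 24216327 to 24216394 (66.5). At the first 2 of these the treatments overlapped, and at the site from 24216327 they did not.

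In cluster 3 the leading common site ran from 57791210 to 57791364. It scored 91.7 and 22.2 in the activin replicates and 173 and 93.6 in the palbociclib replicates, at percentiles 33.5 and 11.5, and 23.5 and 17.3, with overlapping groups. It was followed by the site from 57831688 to 57831909, with percentiles of 27.7 and 25.1 after activin alone and 29.8 and 28.4 after palbociclib. These 4 percentiles spread least among the 4 leading sites of the cluster, although both palbociclib values lay below (weaker than) both activin values in the order. The sites from 58898635 to 58898670 and from 57946728 to 57946746 came next, with mean percentiles of 28.1 and 33.1. The former lies inside the dense window at the far border of the cluster. Cluster 2 had only 4 common sites, from 52772659 to 52772781 (mean percentile 76.9), from 53837033 to 53837042 (85.2), from 52693515 to 52693703 (87.1) and from 53238214 to 53238263 (87.9). All 4 thus belonged by their mean to the weakest 25% of the common sites, and in none of them were the treatments apart.

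The palbociclib libraries both ranked above either activin library at 8 of the 34 common sites, 23.5% (Wilson 95% interval 12.4 to 40.0) against 26.2% of all 5829 common sites. They both ranked below at 7 sites, 20.6% (10.3 to 36.8) against 28.2%. These shares were near those of the genome, and the median change from activin to palbociclib was -0.65 percentile points, against 0.57 over all common sites. In cluster 1 the counts were 3 above and 1 below of 7 sites, in cluster 2 none of 4, and in cluster 3 they were 5 above and 6 below of 23. The median distance between replicates at the cluster sites was 11.6 points for activin and 4.41 points for palbociclib.

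The largest moves toward the strong end after palbociclib were at 3 sites named by their change. The site from 24216327 to 24216394, the last of cluster 1, went from 84.4 ± 3.08 to 48.7 ± 8.44 (mean percentile ± SD, n = 2 each). Its scores were 48.3 and 4.76 in the activin replicates and 112 and 61.6 in the palbociclib replicates. The site from 57946728 to 57946746 went from 46.3 ± 17.4 to 20.0 ± 2.30, and the site from 21203440 to 21203508 from 84.4 ± 3.08 to 62.7 ± 2.52. The activin values of the sites from 24216327 and from 21203440 are equal because both activin lists give the same score at both. In each case the treatments did not overlap, as the choice of these sites required.

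The largest moves toward the weak end were all in cluster 3. The site from 56186388 to 56186485 went from 43.5 ± 23.3 to 89.4 ± 1.79, with activin replicates far apart at 60.0 and 27.0. The site from 58873806 to 58873957 went from 59.5 ± 4.11 to 86.5 ± 10.0, and the site from 56151913 to 56152034 from 75.7 ± 7.77 to 94.3 ± 1.65. All 3 lay in the border windows of the cluster, where sites were densest. These 6 sites are extremes of 34, chosen by their change, and carry no test.

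**Figure D5:**
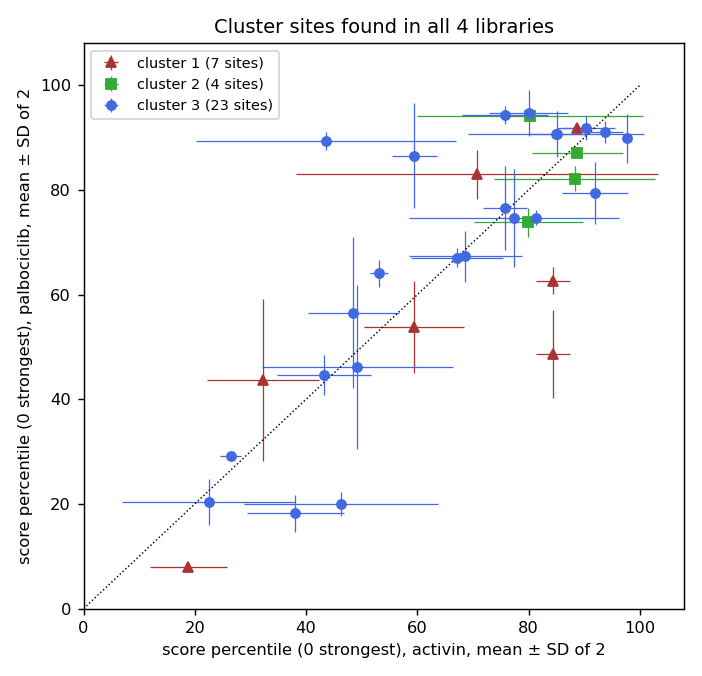
Score percentile among common sites (0 strongest) in the palbociclib libraries against the activin libraries for the 34 cluster sites found in all 4 libraries; points are means and bars are SDs of 2 libraries, and the dotted line marks equal values. Most points sit at the upper right, with medians of 71.6 to 75.4 in the 4 libraries, and the activin bars are longer than the palbociclib bars for many sites.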

How the data were processed

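The analysis started from the deposited summit lists of 4 SMAD2 ChIP-seq libraries; 2 input libraries were not analysed here. Alignment to hg19 and peak calling involved Bowtie 1.1.0, MACS2 2.0.9 and Picard, per the submitters' processing notes; no settings or order are given in the sources used here. Per the labels, each treatment's libraries were called against its own input, without pooling. Column 5 of the deposited lists is on a −log10 scale; the smallest values, just above 1.30, are those of a q-value limit of 0.05, though whether p or q is not stated.

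Regions, members and named sites were chosen with earlier results of these data known. Positions are 1-based. Summits within 250 bp of the next formed 1 site, which kept its best score per library; no site crossed a cluster edge. Length of the rest of chromosome 19 was counted from the first to the last summit (49.8 Mb), the centromeric gap included. Percentiles used mid-ranks over a whole list. Tests were exact and two-sided, with libraries as replicates, and the joining, density and test functions were checked on simulated lists. Shares carry Wilson 95% intervals.

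Named sites were the 4 common sites with the best mean percentile per cluster, up to 5 treatment-only sites of each kind, the 3 largest non-overlapping changes in each direction, and the 3 densest windows. Alternatives covered score threshold, list length, cluster edges, clusters left out, joining distance, the length used, percentiles within the chromosome, replicate block and libraries left out. No sequence is shown, because no hg19 genome was used here. Software was Python 3.11.15 with scipy 1.17.1, pandas 2.3.3, numpy 2.4.6 and matplotlib 3.10.9.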

Additional observations from a re-analysis of the deposited data

How the results depend on the processing

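The lower density of the clusters kept its direction under all 11 alternatives, with log2 ratios from -2.29 without cluster 3 to -0.63 without cluster 1 (1.55-fold lower). The better median percentile of cluster summits kept its direction in 10 of 11 and turned to 12.1 points in lists of equal length. Differences between treatments were less stable. For the share of chromosome 19 summits, the difference was 0.35 points with scores of at least 5, 1.40 in lists of equal length and 0.067 without cluster 3, and ran from -1.41 to 0.28 with 1 library left out. The difference in median percentile was 10.3 points in lists of equal length, or 12.1 relative to the rest of the chromosome, and with 1 library left out it ran from -26.9 to 0.29 and from -24.2 to 0.97. The cause of these turns was not tested. The share of cluster sites in every library was 35.7% in lists of equal length (44.0% in the rest of the chromosome). With 1 library left out it was 21.5% to 50.0% (12.3% to 31.6% in the rest). Palbociclib-only sites, 4 in the full lists (2.38%, against 3.47% in the rest), numbered 9 in lists of equal length (16.1% of 56, against 5.91% in the rest). They numbered 2 with narrowed edges, 2 when joined within 500 bp and 0 without cluster 3, beside 103, 73 and 101 in the rest. With 1 library left out they numbered 4 to 54, beside 106 to 768 in the rest. Activin-only sites, 0 in the full lists, numbered 4 in lists of equal length (7.14%, against 3.61% in the rest). With 1 library left out there were 0 to 22, beside 11 to 449 in the rest. For scale, the full lists held 168 cluster sites and 2914 sites in the rest. Leaving out a library eases these calls by construction. With the replicate number as a block, the paired differences were -0.56, -13.3 and -11.6 points, each with exact permutation p = 0.5, the smallest that 2 pairs allow; the same-numbered libraries correlated in their deviations at r = 0.264 across 5829 common sites, but the labels state no shared batch. The 37 cluster summits of activin replicate 2 leave wide intervals; read depth is unknown.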
